A study of Mus musculus with 8 samples.

Results

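Cd4, Cd8a and Cd8b1 encode the chains of the T cell coreceptors CD4 and CD8, and these 3 genes were followed among the 31053 genes measured in each of 8 single-cell libraries of mouse colon. The cells came from the lamina propria, the tissue that lies beneath the epithelium of the gut. The genes were chosen by name, over every barcode in the deposited count tables. The mice were C57BL/6 and 10 to 12 weeks old, and were either wildtype or carried a knock-in substitution in RORgt, the transcription factor of Th17 cells and type 3 innate lymphoid cells. The labels name that substitution S182A in the series title and S203A in the sample titles. Mice drank plain water for 10 days, or 2% DSS (dextran sulfate sodium, a chemical that damages the gut epithelium) for 7 days followed by plain water for 3 days, and all were taken on day 10. The untreated wildtype, untreated mutant, DSS wildtype and DSS mutant groups had 2 libraries each, described by the submitters as independent biological replicates. Cells had been passed through a magnetic kit for CD4+ T cells before about 10000 per library were loaded, so the shares of CD4 and CD8 cells given here are those left after that enrichment, not those of the tissue. The sex of the mice and the number of animals behind a library are not given in the sources used here.

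A coreceptor binds the same MHC molecule as the T cell receptor beside it. CD4 is a single chain that binds MHC class II and marks helper and regulatory T cells, and CD8 is a pair of chains that binds MHC class I and marks cytotoxic T cells. CD8 is made of 1 alpha chain (Cd8a) with 1 beta chain (Cd8b1) on conventional cytotoxic T cells, or of alpha chains alone on some intraepithelial lymphocytes, natural killer cells and the cDC1 subset of dendritic cells. Mouse Cd4 is also known from lymphoid tissue inducer cells, a kind of type 3 innate lymphoid cell, from plasmacytoid dendritic cells and from gut macrophages that are long resident in the tissue.

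All 3 genes lie on chromosome 6 of GRCm38. Cd4 (ENSMUSG00000023274) spans 124864692 to 124888221 on the minus strand and its coding transcript Cd4-201 has 10 exons. Cd8b1 (ENSMUSG00000053044) spans 71322788 to 71337494 on the plus strand with 6 exons, and Cd8a (ENSMUSG00000053977) spans 71373427 to 71379173 on the plus strand, starting 35.9 kb after Cd8b1 ends. No other annotated gene overlapped any of the 3. The cytoplasmic tails of CD4 and CD8 alpha hold a cysteine, any residue, cysteine, proline motif through which the kinase Lck is held, and CD8 beta lacks it. The coding stretches below show this difference between the 3 members, with the 12 bases of the motif in capitals. Where the motif was not found, the last 60 coding bases up to the stop codon are given.
Cd4-201: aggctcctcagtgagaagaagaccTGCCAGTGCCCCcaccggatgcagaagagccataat
Cd8a-201: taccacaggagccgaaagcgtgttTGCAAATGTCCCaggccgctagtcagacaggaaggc
Cd8a-202: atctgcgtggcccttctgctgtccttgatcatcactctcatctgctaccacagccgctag
Cd8b1-201: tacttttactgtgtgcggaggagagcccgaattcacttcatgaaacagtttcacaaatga
Read in frame on the coding strand, the motif stood at coding bases 1330 to 1341 of the 1374 of Cd4-201 and at 679 to 690 of the 744 of Cd8a-201. It was found in neither Cd8b1-201 (642 coding bases) nor the shorter Cd8a-202 (669 coding bases), which lacks the stretch that holds it. Of the 44518 complete coding sequences in the annotation, 2.27% held it at any position. UMI counts from the 3′ end do not separate Cd8a-201 from Cd8a-202, so the Cd8a values that follow cover both.

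Over the 100673 barcodes, each with at least 500 UMIs (unique molecular identifiers, 1 for each captured transcript), Cd4 was the abundant member and the CD8 chains were rare. Cd4 gave 54682 UMIs in 33402 barcodes (33.2%), Cd8b1 1291 UMIs in 809 barcodes (0.804%) and Cd8a 694 UMIs in 438 barcodes (0.435%). Even Cd4 was thinly sampled, because 62.1% of the barcodes with Cd4 held exactly 1 UMI of it and the highest count was 16. Cd8a and Cd8b1 were found together in 162 barcodes, Cd8a without Cd8b1 in 276 and Cd8b1 without Cd8a in 647. Libraries held 10563 to 16133 barcodes with a median of 1829 to 2825 UMIs, and any 2 of them shared 21 to 64 barcode sequences, 2.35% of all barcodes in total.

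Because Cd4 was so often seen as 1 UMI, whether a cell showed it depended on depth. In T cell-like barcodes, a Cd4 UMI was found in 19.5% of those with 500 to 1000 UMIs and in 90.6% of those above 10000. Over the same range the Cd4 level went from 284 to 230 CPM. Levels are therefore given as CPM, a member's UMIs in a class and library scaled to a common total of UMIs, and shares of barcodes are also given after each barcode was thinned at random to 500 UMIs.

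Mean Cd4 levels were highest in T cell-like, innate lymphoid-like, plasmacytoid DC-like and macrophage-like barcodes, and lower in cDC1-like, neutrophil-like, stromal, B and plasma cells. Classes were named from marker genes after clustering without the 3 members. T cell-like barcodes (59902) held 264 ± 45.8 CPM of Cd4 (SD, n = 8 libraries), with 209 in the lowest library, 249 at the median and 325 in the highest. Innate lymphoid-like barcodes (1181), a mixed cluster led by Il22, the interleukin-22 gene of type 3 innate lymphoid cells, held 308 ± 83.5 CPM, from 220 to 469 around a median of 297. Macrophage-like barcodes (6555) held 212 ± 27.2 CPM, from 181.9 to 253 around a median of 212. The lowest of these 24 library values was above the highest fibroblast-like value, 87.7 CPM. Left out of the macrophage-like class was an unnamed cluster of 3235 barcodes led by C1qa, at 180 ± 49.3 CPM. So was an unnamed cluster of 2855 barcodes led by Chil3 and Il1b, at 55.0 ± 20.7 CPM. The macrophage list was the best marker list of both.

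Among the innate lymphoid barcodes, 1 subcluster of 503 barcodes had few T cell transcripts and a mean Cd4 level above that of T cell-like barcodes. It held 365 ± 122 CPM of Cd4 (258 in the lowest library, 312 at the median, 572 in the highest). Cd3e, a chain of the CD3 complex that T cells must express, stood at 10.2 CPM. The Cd4 range overlapped that of T cell-like barcodes (209 to 325 CPM), and the difference was not tested. After thinning to 500 UMIs, a Cd4 UMI was found in 13.7 ± 4.27% of the subcluster and 12.5 ± 2.2% of T cell-like barcodes. Neither Cd8a nor Cd8b1 gave a UMI in these 503 barcodes (median depth 2460 UMIs), which allows a share of barcodes with a UMI of up to 0.596% and does not limit the share of cells with low expression. Its leading genes by fold against the other innate lymphoid subclusters were S100a9, Dsg2 and S100a8 rather than innate lymphoid markers, so the subcluster was given no cell type name. The NK or ILC1-like subcluster (296 barcodes) held 160 ± 57.2 CPM of Cd4, and T cell markers were found in 60.5% of its barcodes with and 62.3% of those without a Cd4 UMI at 1000 UMIs, so this level is not that of cells without T cell transcripts. Another innate lymphoid subcluster of 250 barcodes held 347 ± 99.2 CPM, but T cell markers were found in 93.4% of its barcodes with and 91.9% of those without a Cd4 UMI at 1000 UMIs and 32.4% had high doublet scores, and it was left unnamed. Of the 1274 Cd4 UMIs of the innate lymphoid-like class, 468 came from the subcluster of 503 barcodes and 545 from this one. A further 82 came from 46 barcodes with macrophage markers, of which 80.4% had high doublet scores. The class level is thus that of a mixture.

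Dendritic cells differed by subset in all 3 members. Plasmacytoid DC-like barcodes, defined by Siglech, Cox6a2 and Ccr9, held 221 ± 82.0 CPM of Cd4, mature DC-like barcodes 108 ± 46.4 CPM and cDC1-like barcodes 50.9 ± 16.6 CPM. An unnamed dendritic subcluster at 172 ± 42.8 CPM had the regulatory T cell genes Il1rl1 and Foxp3 among its leading genes. High doublet scores were found in 41.8% of its 342 barcodes. The other unnamed dendritic subclusters held 13.7 ± 8.57 CPM (402 barcodes, the largest), 58.0 ± 31.3 (165 barcodes) and 58.8 ± 27.3 (145 barcodes). The remaining classes followed with fibroblast-like barcodes at 57.7 ± 17.3, B cell-like at 40.6 ± 23.1, endothelial-like at 22.9 ± 7.02, smooth muscle-like at 19.5 ± 13.9 and plasma cell-like at 14.03 ± 3.95 CPM. Glia-like and neutrophil-like barcodes held 33.1 ± 30.5 and 29.1 ± 31.6 CPM, with 0 in at least 1 library. In the order of means of the 15 classes, from the unnamed innate lymphoid subcluster down to plasma cells, no 2 neighbouring classes were separated by more than the sum of their SDs.

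**Figure D1:**
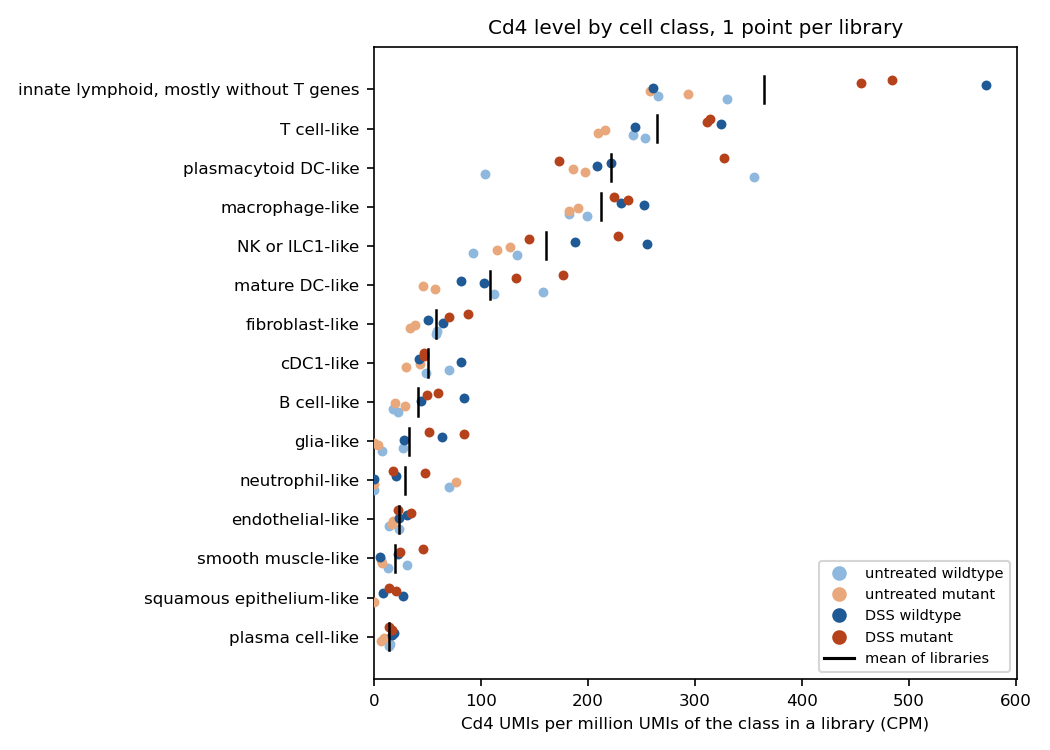
Cd4 level in 15 classes (horizontal axis, CPM of the class in a library; 1 point per library, coloured by group; black bar, mean over libraries). The innate lymphoid subcluster mostly without T genes, T cell-like, plasmacytoid DC-like and macrophage-like barcodes lie above 200 CPM on average, and plasma cell-like barcodes at 14.03 CPM.

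In some classes a Cd4 UMI went with T cell transcripts in the same barcode, and in others it did not. After thinning to 1000 UMIs, at least 1 of 8 T cell markers was found in 96.5% of T cell-like barcodes with a Cd4 UMI and in 95.7% of those without. In macrophage-like barcodes the same markers were found in 12.8% with and 12.3% without a Cd4 UMI, and in the unnamed innate lymphoid subcluster in 29.1% and 27.7%. In contrast, T cell markers were found in 73.8% of fibroblast-like barcodes with a Cd4 UMI against 25.6% without, in 59.0% against 11.5% of endothelial-like and in 66.7% against 12.9% of B cell-like barcodes. Dendritic cell-like barcodes showed a difference of this kind as a whole (68.4% against 37.5%) and in the cDC1-like subset (66.7% of 15 against 31.7% of 350), while mature DC-like barcodes stood at 53.3% of 15 against 48.0% of 179. Scores for doublets (droplets with 2 cells) moved with this, being among the highest of their library in 52.9% of fibroblast-like barcodes with Cd4 and 15.8% of those without, and in 38.5% and 17.4% of dendritic cell-like barcodes, but in 8.78% and 7.63% of macrophage-like barcodes. As a further background, a Cd4 UMI was found in 0.690% of plasma cell-like barcodes thinned to 500 UMIs (median depth 7449 UMIs before thinning), against 12.7% of T cell-like (median 1935) and 9.49% of macrophage-like barcodes (median 3784). This background varied by class. It was 0.572% in smooth muscle-like, 0.983% in B cell-like, 1.205% in endothelial-like, 1.94% in fibroblast-like and 2.025% in squamous epithelium-like barcodes.

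The CD8 chains had a different distribution, and their highest mean levels per class were in plasmacytoid DC-like barcodes, although most of their UMIs came from the far more numerous T cell-like barcodes. In the 120 plasmacytoid DC-like barcodes, Cd8b1 stood at 687 and 347 CPM in the untreated wildtype libraries, 811 and 706 in the untreated mutant, 416 and 403 in the DSS wildtype and 414 and 245 in the DSS mutant. All 8 values lay far above the highest T cell-like library at 11.1 CPM (T cell-like mean 5.76 ± 2.44), and 60 of the 120 barcodes held a Cd8b1 UMI (exact 95% interval 40.7 to 59.3%). Cd8a stood at 244 and 312, 154 and 465, 241 and 40.3, and 80.6 and 0 CPM in the same order, with a UMI in 34.2% of barcodes (25.8 to 43.4%). The library at 0 held 7 such barcodes, and libraries held 7 to 27, so single values rest on few cells. These 120 barcodes gave 17.7% of all Cd8b1 UMIs and 13.3% of all Cd8a UMIs of the series, and T cell-like barcodes 63.05% and 61.1%. The T cell-like level is an average over cells enriched for CD4, of which 1.01% held a Cd8b1 UMI. At 1000 UMIs, at least 1 of 8 T cell markers was found in 15.7% of plasmacytoid DC-like barcodes without a Cd4 UMI and 22.2% of those with one. Macrophage markers were found in 19.6% of those without and 44.4% of the 18 with a Cd4 UMI, and high doublet scores in 20.6% and 33.3%. Their part in the Cd4 level of this class was not tested.

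In cDC1-like barcodes, named from Xcr1, Cadm1 and Clec9a, the alpha chain appeared mostly without the beta chain. Cd8a was found in 36 of 371 barcodes (9.70%, exact 95% interval 6.89 to 13.2%) at 12.7 ± 7.98 CPM, and Cd8b1 in 2 (0.539%). The median depth of these barcodes was 8099 UMIs, and after thinning to 500 UMIs 1.08% still held Cd8a. Macrophage-like barcodes held 0.657 ± 0.574 CPM of Cd8a and fibroblast-like barcodes 0.619 ± 0.418, which is the level in cells that should lack the gene. NK or ILC1-like barcodes held Cd8a at 7.53 ± 8.70 CPM, from 5 barcodes in all and 0 in 4 of 8 libraries. These intervals cover counting error only.

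**Figure D2:**
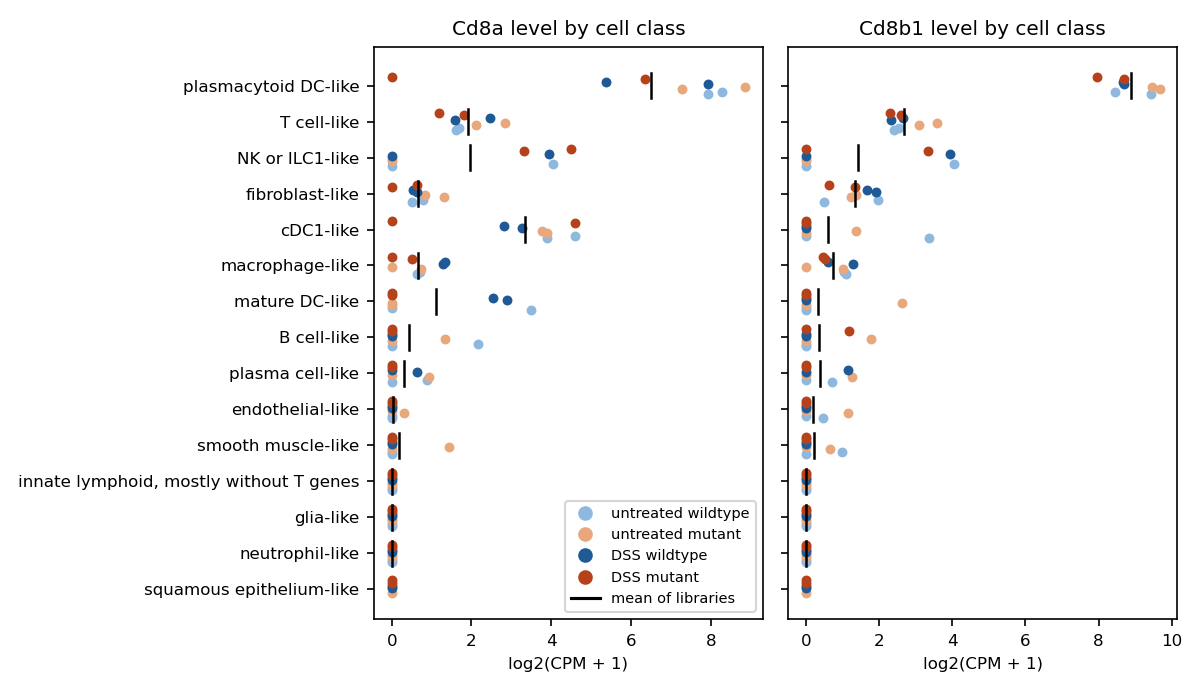
Cd8a (left) and Cd8b1 (right) in the same 15 classes, as log2(CPM + 1), with 1 point per library coloured by group and the mean as a black bar. Plasmacytoid DC-like barcodes lie highest for both genes, and cDC1-like barcodes stand out for Cd8a but not for Cd8b1.

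Across the 15 classes, the genes whose class means most resembled each member were found by Pearson's r of log2(CPM + 1), as a description over classes that come from the same 8 libraries. Il7r, the interleukin-7 receptor chain, was nearest to Cd4 (r = 0.934), followed by Ppm1h (0.926) and Cdip1 (0.913). Klrd1, a natural killer cell receptor, was among the 5 nearest to Cd8a (0.887), after Me2 (0.910), BC147527 (0.898) and Pacsin1 (0.889). For Cd8b1 the nearest were BC147527 (0.979), Dntt (0.943), the terminal transferase of lymphoid progenitors, and Klk1 (0.930). All 5 genes nearest to Cd8b1 had their highest class mean in plasmacytoid DC-like barcodes.

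Within T cell-like barcodes, Cd4 was highest in the Il17a cluster and lowest in the cluster with naive-cell genes. The cluster led by Il17a and Il17f held 344 ± 54.4 CPM of Cd4 (278 to 410, median 325). The regulatory cluster led by Foxp3 and Gzmb held 308 ± 53.3 CPM and the other regulatory cluster, led by Il1rl1, held 228 ± 50.7 CPM. The cluster led by Lef1, a gene of naive and central memory cells, and Hbb-bs held 145 ± 44.9 CPM (73.4 to 205, median 151). Every library had less Cd4 in the naive-type cluster than in the Il17a cluster, and the ranges of these 2 clusters did not overlap.

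Cd8a was concentrated in the T cell-like cluster led by Ccl5, Nkg7 and Gzma, genes of cytotoxic cells. That cluster held 195 of the 277 T cell-like barcodes with Cd8a (70.4%) and 13.5 ± 8.03 CPM of Cd8a, from 5.54 to 25.8 CPM. The Il17a cluster held 0.239 ± 0.298 CPM. In the proliferating cluster Cd8a reached 32.6 CPM in untreated mutant replicate 2, with 0.262 to 9.64 CPM in the other libraries. Cd8b1 was spread more evenly. It stood at 13.1 ± 8.49 CPM in the cytotoxic-gene cluster, 10.2 ± 13.5 in the proliferating cluster, 7.91 ± 6.76 in the naive-type cluster, 6.44 ± 1.25 in the Il1rl1 regulatory cluster, 4.47 ± 1.11 in the Foxp3 and Gzmb cluster and 1.36 ± 0.719 in the Il17a cluster. Untreated mutant replicate 2 was again the highest proliferating-cluster library, at 42.8 CPM.

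**Figure D3:**
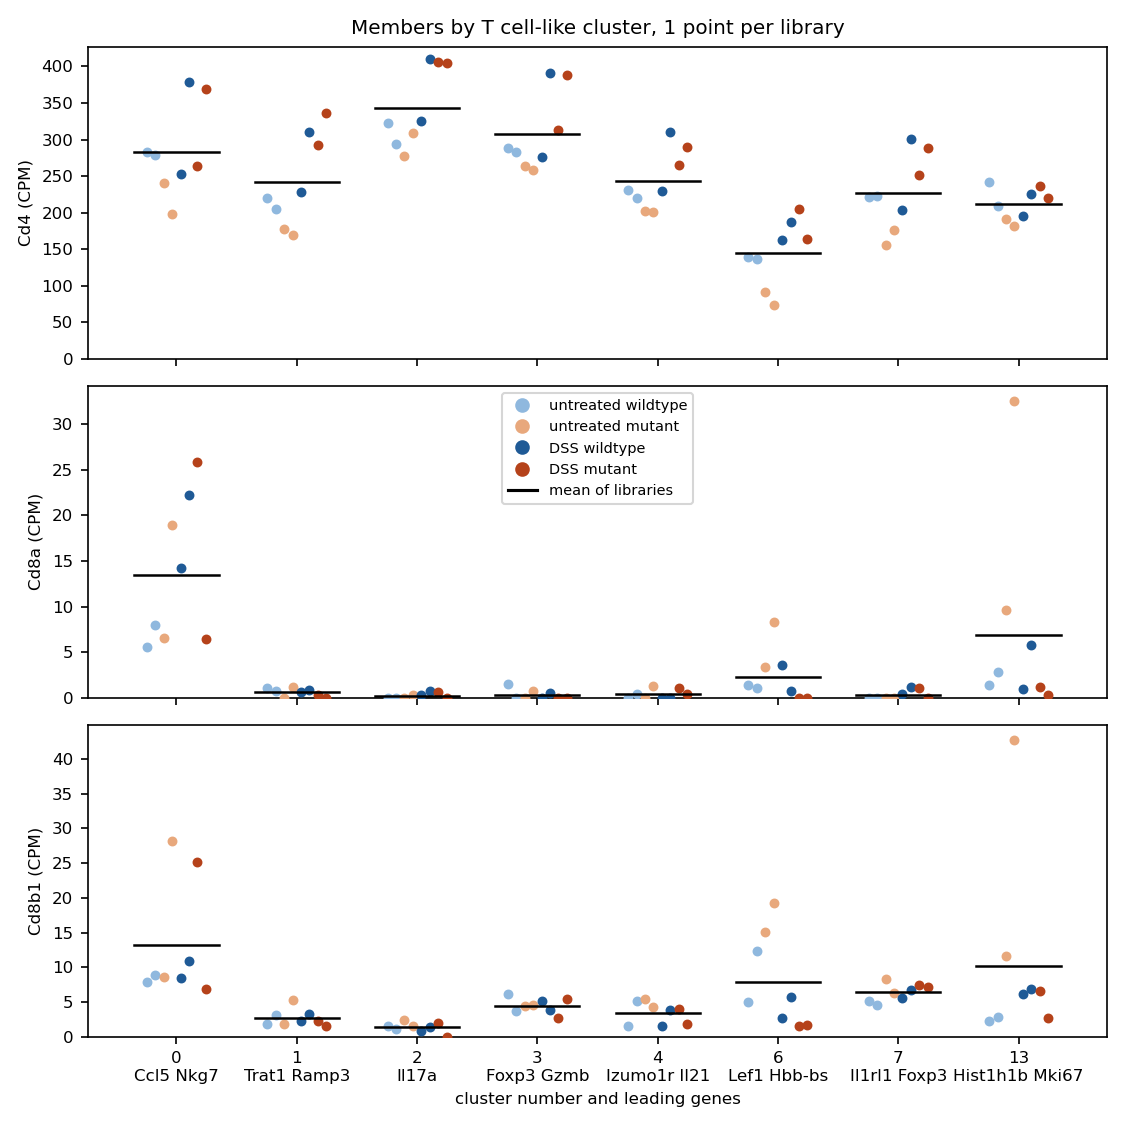
Cd4, Cd8a and Cd8b1 in CPM (vertical axes, from 0) in the 8 T cell-like clusters, each named by its number and leading genes, with 1 point per library and the mean as a bar. Cd8a stands in clusters 0 and 13 and is near 0 in the Il17a and Foxp3 clusters, where Cd8b1 is still seen.

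Most T cell-like barcodes showed either Cd4 alone or no coreceptor. Cd4 alone was seen in 24775 (41.4%), neither gene group in 34357 (57.4%), Cd8a or Cd8b1 without Cd4 in 526, and a CD8 chain together with Cd4 in 244. Of the 277 barcodes with Cd8a, 16.2% also held Cd4 (exact 95% interval 12.1 to 21.1%). Of the 493 with Cd8b1 but no Cd8a, 40.4% held Cd4 (36 to 44.8%), against 41.9% (41.5 to 42.3%) among the 59132 barcodes with neither CD8 chain. Median depths were 2104, 2571 and 1931 UMIs, so the barcodes with Cd8a were not shallower than those with neither, those with Cd8b1 alone were deeper, and deeper barcodes showed Cd4 more often. These shares pool barcodes over the 8 libraries at unequal depth, their intervals cover counting error only, and they were not tested. Foxp3, the lineage factor of regulatory T cells, was seen in 4.69% of barcodes with Cd8a, 27.2% of those with Cd8b1 alone and 13.1% of those with neither. Zbtb7b, which encodes ThPOK, the regulator that keeps cells in the CD4 lineage, was seen in 0.722%, 6.49% and 2.93%, and Nkg7, of cytotoxic granules, in 66.1%, 21.3% and 14.1%.

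The genes that went with a CD8 chain were compared across libraries by setting the summed counts of T cell-like barcodes with Cd8a or Cd8b1 and no Cd4 against those with Cd4 only (edgeR quasi-likelihood test, with the library as a block). The members themselves define these groups and are not results. Of the 11025 genes tested, 681 (6.18%) passed an adjusted p of 0.05, 190 higher and 491 lower in the CD8 group. All 13 cytotoxic genes of a list of their kind were higher, with a median log2 difference of 2.83 against -0.08 over all genes. Ccl5, a chemokine of cytotoxic cells, stood at 4249 to 7019 CPM (median 5900) against 206 to 863 CPM (median 465), a log2 difference of 3.62 ± 0.07 (SE). Eomes, a transcription factor of cytotoxic lymphocytes, stood at 56.1 to 116 CPM (median 86.9) against 0.994 to 11.4 CPM (median 4.88), a log2 difference of 4.19 ± 0.25. In both genes the 2 groups did not overlap, and both were higher in 8 of 8 libraries. Klrd1 and Prf1, the gene of perforin, differed by 4.01 ± 0.23 and 3.76 ± 0.35.

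The genes with the largest differences among those at 20 CPM or more included the natural killer receptors Klre1 and Klrk1 and the chemokines Ccl4, Ccl20, Cxcl3 and Cxcl2. Klre1 (log2 difference 5.76), Bend4 (4.95), Ly6c2 (4.67), Cd7 (3.20), Klrk1 (2.61), Ccl4 (2.55) and Gzma (2.40) were higher in all 8 libraries. Il17f (-3.25), Ccl20 (-3.04), Cxcl3 (-2.94), Il17a (-2.56), Lgals7 (-1.87), Cxcl2 (-1.78), Ccr1 (-1.67), Il1r2 (-1.66), Cpd (-1.63) and Asb2 (-1.62) were lower in all 8. Among 11 helper and regulatory genes, 7 were lower (Il17a, Il17f, Tnfrsf4, Cd40lg, Icos, Ctla4 and Il2ra), 1 was higher (Ikzf2, 0.34 ± 0.10) and 3 did not pass. Foxp3 was among the 3, with a log2 difference of -0.37 ± 0.16 (edgeR adjusted p = 0.207), and of the left-out libraries it passed only without DSS mutant replicate 2 (-0.55, adjusted p = 0.0394). Ikzf2 turned to -0.18 when barcodes were thinned to 1000 UMIs.

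Most regulators of the choice between the CD4 and CD8 lineages did not pass. Of 13 such genes, Lef1 was higher (0.79 ± 0.15), Runx1 (-0.78 ± 0.13) and Satb1 (-0.28 ± 0.08) were lower, and 10 did not pass, among them Zbtb7b at -0.63 ± 0.43 (adjusted p = 0.521, edgeR). Of 16 receptor and kinase partners of the coreceptors, 8 were lower, including Cd5 (-0.90 ± 0.13), Lag3 (-0.90 ± 0.15), an inhibitory receptor that like CD4 binds MHC class II, and Zap70 (-0.57 ± 0.14). Ptprc was higher at 0.25 ± 0.07, and turned to -0.06 after thinning. Of 8 unconventional T cell genes tested, 5 were higher, with the gamma chain constant genes Tcrg-C4 at 3.63 ± 0.47 and Tcrg-C2 at 2.45 ± 0.37. Trdc, the delta chain, did not pass (1.42 ± 0.61, adjusted p = 0.180, edgeR), and turned to -0.31 without untreated mutant replicate 2. Tyrobp, among the 5, turned to -0.65 after thinning.

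The CD8 chains were then taken apart, a comparison added after the counts above had been seen. Differences were larger beside Cd8a without Cd4 than beside Cd8b1 with or without Cd4. Barcodes with Cd8a and no Cd4 against Cd4 only gave 883 of 10336 genes (8.54%), and all 13 cytotoxic genes were higher (median 3.39, all genes -0.21). Of the 11 helper and regulatory genes, 9 were lower, and Foxp3 stood at 0 to 69.9 CPM (median 11.1) against 34.4 to 146 (median 86.5), a log2 difference of -2.71 ± 0.39. Barcodes with Cd8b1 and no Cd8a, with or without Cd4, gave 425 of 11123 genes (3.82%) against Cd4 only. Of these 493 barcodes 199 held a Cd4 UMI, while the Cd8a side had none. The 2 comparisons are thus not on equal terms, and their counts and signs cannot be set side by side as such. Of the 13 cytotoxic genes, 6 were higher, with Ccl5 at 1.69 ± 0.07 and Eomes at 2.17 ± 0.33, and Nkg7 at 0.14 ± 0.11 did not pass. Of the 11 helper and regulatory genes, 6 were lower (Cd40lg, Ctla4, Icos, Il17a, Il17f and Tnfrsf4), 2 were higher (Foxp3 and Ikzf2) and 3 did not pass, with a list median of -0.36. Foxp3 stood at 37.1 to 310 CPM (median 146) against the same 34.4 to 146 in the Cd4-only barcodes, a log2 difference of 0.51 ± 0.12 seen in 7 of 8 libraries (edgeR adjusted p = 0.00171).

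That Foxp3 call was lost without DSS mutant replicate 2 (0.34, adjusted p = 0.200) and without the library block (0.63, adjusted p = 0.563), where 12 genes were called in place of 425. Without the highest doublet scores it stood at 0.49 (edgeR adjusted p = 0.00497). The 2 sides of this comparison were not brought to equal depth. Barcodes with a Foxp3 UMI were deeper, with a median of 2514.5 UMIs against 1935 over all T cell-like barcodes. Their Cd8b1 level was 5.725 ± 1.22 CPM, against 5.76 ± 2.44 over all. Thinned to 500 UMIs, 0.21 ± 0.12% of them held a Cd8b1 UMI, against 0.26 ± 0.11% over all. By these measures Cd8b1 was not higher in barcodes with Foxp3. Set directly against barcodes with Cd8a, those with Cd8b1 alone had higher Foxp3 (2.15 ± 0.32), Il17a (1.71 ± 0.33) and Ctla4 (0.98 ± 0.14), and lower Nkg7 (-2.54 ± 0.18), Ccl5 (-2.49 ± 0.18), Klrd1 (-2.38 ± 0.28) and Eomes (-2.32 ± 0.42). In that comparison 173 of 4040 genes (4.28%) passed, with 11 of 12 cytotoxic genes lower and 6 of 7 helper and regulatory genes higher. Set against barcodes with neither chain, those with Cd8b1 alone gave 5.92% of 11753 genes, with 7 of 13 cytotoxic genes and Foxp3 (0.50 ± 0.12) higher.

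**Figure D4:**
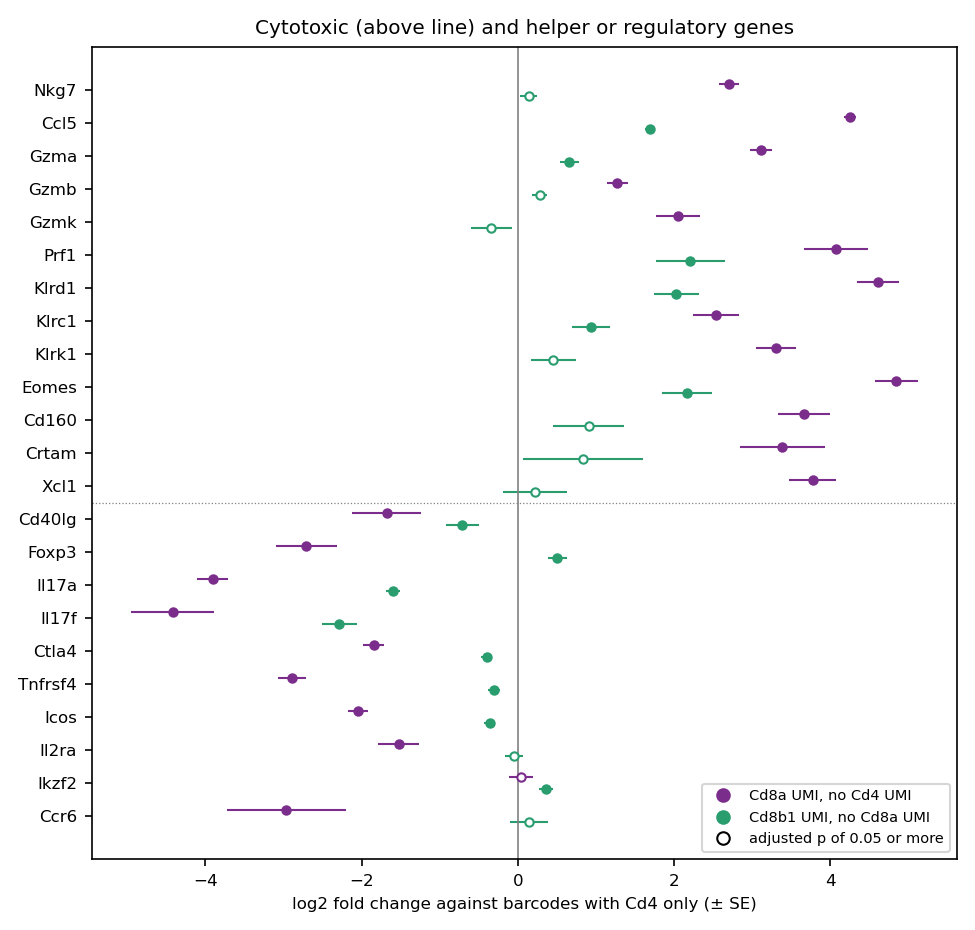
Log2 difference ± SE (horizontal axis) of 13 cytotoxic and 10 of the 11 helper or regulatory genes against T cell-like barcodes with Cd4 only. Purple points are barcodes with Cd8a and no Cd4, and green points those with Cd8b1 and no Cd8a, with or without Cd4. Open points did not pass an adjusted p of 0.05. The purple cytotoxic points all lie right of 0, and Foxp3 lies left of 0 for Cd8a and right of 0 for Cd8b1.

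In macrophage-like barcodes thinned to 1000 UMIs, a Cd4 UMI went with differences in few other genes. Barcodes were thinned to 1000 UMIs first, so that those with Cd4 were not simply the deeper ones. The groups were set by the Cd4 UMI left after thinning, in 1151 barcodes with and 5253 without. Before thinning, 2967 of the 6555 macrophage-like barcodes held a Cd4 UMI. The side without Cd4 thus includes barcodes that held a Cd4 UMI at full depth. The comparison therefore cannot stand for cells with against cells without the transcript, and it can understate their differences. Of 5466 genes tested, 65 (1.19%) passed, 16 higher and 49 lower with Cd4. Without thinning 491 genes passed, among them 20 of the 65. Gpnmb, a transmembrane glycoprotein of macrophages, stood at 136 to 450 CPM (median 260) with Cd4 against 52.2 to 257 (median 168) without, a log2 difference of 0.74 ± 0.11. Vcam1, an adhesion molecule, stood at 604 to 3343 CPM against 354 to 2814, a difference of 0.40 ± 0.06, and the chemokine Ccl8 differed by 0.33 ± 0.05. The groups overlap in all 3 genes, and the direction was the same in 8 of 8 libraries.

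Selenop (0.23), Grn (0.23) and the lysosomal protein gene Psap (0.21) followed, with 4 mitochondrial transcripts (mt-Nd2, mt-Cytb, mt-Co3 and mt-Co2) between 0.16 and 0.18. Lower with Cd4 were Dapk1 (-1.24), Anapc5 (-0.90), Ndrg1 (-0.80), Mapkapk3 (-0.64) and 6 ribosomal protein genes, from Rpl35 (-0.40) to Rps26 (-0.29). Grn moved to -0.01 without thinning. Of 8 resident macrophage genes tested none passed in edgeR (1 at an unadjusted p under 0.05, 0 in DESeq2), with Cx3cr1 at 0.17 ± 0.11, Adgre1 at 0.15 ± 0.08 and C1qb at -0.11 ± 0.05. The 65 calls became 20 without untreated wildtype replicate 2, 34 without DSS mutant replicate 1 and 40 without DSS wildtype replicate 1. Without the library block there were 0, with 117 genes at an unadjusted p under 0.05 there and 61 calls in DESeq2 with the block.

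Between the groups, Cd4 in T cell-like barcodes stood at 253 and 242 CPM in the untreated wildtype, 209 and 216 in the untreated mutant, 244 and 325 in the DSS wildtype and 311 and 314 in the DSS mutant. The untreated mutant libraries were the lowest and the DSS mutant libraries lay above both untreated groups, while the DSS wildtype libraries were apart from each other. DSS against untreated gave a log2 difference of 0.46 ± 0.13 in the mutant (edgeR adjusted p = 0.0574) and 0.12 ± 0.13 in the wildtype (adjusted p = 0.626). Neither passed, although the mutant value did in DESeq2 (0.45, adjusted p = 0.0168). It also passed in edgeR without DSS wildtype replicate 1 or 2 (0.45 and 0.46), while listed cells alone gave 0.13 (adjusted p = 0.645). All listed cells held a Cd4 UMI, so their value comes from cells selected on Cd4 itself and cannot check the value over all cells. In a sum over a class, a change in the share of cells with the gene cannot be told apart from a change in transcripts per cell.

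Cd8b1 in T cell-like barcodes stood at 4.31 and 4.83 CPM in the untreated wildtype, 7.53 and 11.1 in the untreated mutant, 4.01 and 5.34 in the DSS wildtype and 5.04 and 3.95 in the DSS mutant. Both untreated mutant libraries lay above all 6 others. Cd8b1 fell by 1.16 ± 0.25 on the log2 scale with DSS in the mutant (edgeR adjusted p = 0.0341), the only call among the 3 members in that comparison, where 8.29% of 12633 genes were called. In DESeq2 all 3 members passed there. In the wildtype the difference was -0.05 ± 0.26 (adjusted p = 0.933) with 0.103% of genes called. The numbers of genes called were 13 in the wildtype and 1047 in the mutant by edgeR, but 467 and 1257 by DESeq2, and 2652 and 3800 had an unadjusted p under 0.05 in edgeR. The difference between the genotypes' DSS effects, a test added later, was -1.11 ± 0.36 and did not pass (edgeR adjusted p = 0.9999).

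That call did not hold under every choice of libraries. It was lost without untreated mutant replicate 2 (-0.82, adjusted p = 0.193), untreated mutant replicate 1 (-1.42, 0.108), DSS mutant replicate 2 (-0.98, 0.115) and either untreated wildtype library (-1.15 each, 0.0586 and 0.0583). It was also lost in listed cells alone (-0.36, edgeR adjusted p = 0.466), which all held a Cd4 UMI. That setting leaves out the T cell-like barcodes with a CD8 chain and no Cd4, so it cannot check the call over all of them. The direction was the same each time. Cd8a had lower counts, with 2.07 and 2.19 CPM, 3.33 and 6.17, 2.01 and 4.53, and 2.52 and 1.26 in the groups as listed for Cd8b1. Unlike for Cd8b1, DSS wildtype replicate 2 lay above untreated mutant replicate 1. With DSS, Cd8a differed by -1.44 ± 0.47 in the mutant (edgeR adjusted p = 0.0843) and by 0.52 ± 0.48 in the wildtype (adjusted p = 0.56). Mutant against wildtype in untreated mice gave 1.03 ± 0.25 for Cd8b1 (adjusted p = 0.662) and 1.16 ± 0.48 for Cd8a (adjusted p = 0.866). In that comparison 0% of genes were called by edgeR (699 at an unadjusted p under 0.05, 34 in DESeq2), and 0% after DSS (147 and 0), where the members stood between -0.80 and 0.12.

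Of the 11 helper and regulatory genes in T cell-like barcodes, 1 passed in the DSS comparison of wildtype mice, beside 0.103% of all genes, and 4 in that of mutant mice. Of the other lists, the wildtype comparison called only Itgae, an integrin chain of tissue T cells, at 1.70 ± 0.13. Foxp3 rose in both genotypes, by 1.26 ± 0.15 in the wildtype and 1.63 ± 0.15 in the mutant. In the mutant, beside 8.29% of all genes, 2 of 13 lineage regulators passed, 1 of 16 receptor and kinase partners, 2 of 13 cytotoxic genes, 0 of 8 ligand genes and 1 of 8 genes tested in each of the unconventional T cell, resident macrophage and monocyte lists, with Itgae (1.46 ± 0.13), Mrc1 and Ccr2 higher. These shares rest on 0 to 2 genes a list. In the mutant Cbfb (0.73), the partner of the Runx factors that set CD8 lineage genes, Il2ra (0.72) and Ikzf2 (0.47) also rose. Lck, the kinase bound by the tails shown above, fell by 0.44 on the log2 scale, Tcf7 by 0.41, Tnfrsf4 by 0.67, and the cytotoxic-cell genes Klrk1 and Cd160 by 0.65 and 1.77. In the wildtype, where none of these 8 passed, Cbfb stood at 0.53, Il2ra at 0.50, Ikzf2 at 0.54, Klrk1 at -0.80, Cd160 at -0.75, Tnfrsf4 at -0.29, Lck at -0.01 and Tcf7 at 0.22. The difference between the genotypes' DSS effects passed for none of the named genes, from -1.01 for Cd160 to 0.37 for Foxp3, and edgeR called 0 of 12633 genes in that test (480 at an unadjusted p under 0.05), so no change is shown to be particular to the mutant. Over 15 alternative settings and left-out libraries, the Foxp3 call held in 12 in wildtype mice, being lost without either untreated wildtype library or DSS wildtype replicate 2, and in 14 in mutant mice, being lost without untreated mutant replicate 1. The Cbfb call held in 12. The calls of Lck held in 6, Tcf7 and Tnfrsf4 in 8 each, Klrk1 and Cd160 in 7 each, Il2ra in 9 and Ikzf2 in 5, all with the same sign. The share of T cell-like barcodes with Cd8a or Cd8b1, thinned to 500 UMIs, was 0.326 ± 0.0962% in the 4 DSS libraries (0.215 to 0.435%) and 0.426 ± 0.157% in the 4 untreated ones (0.308 to 0.657%). These overlap (two-sided exact permutation test over libraries, p = 0.343, where 0.0286 is the smallest possible). By genotype, the share was 0.404 ± 0.184% in the 4 mutant and 0.348 ± 0.067% in the 4 wildtype libraries (same permutation test, p = 0.657).

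**Figure D5:**
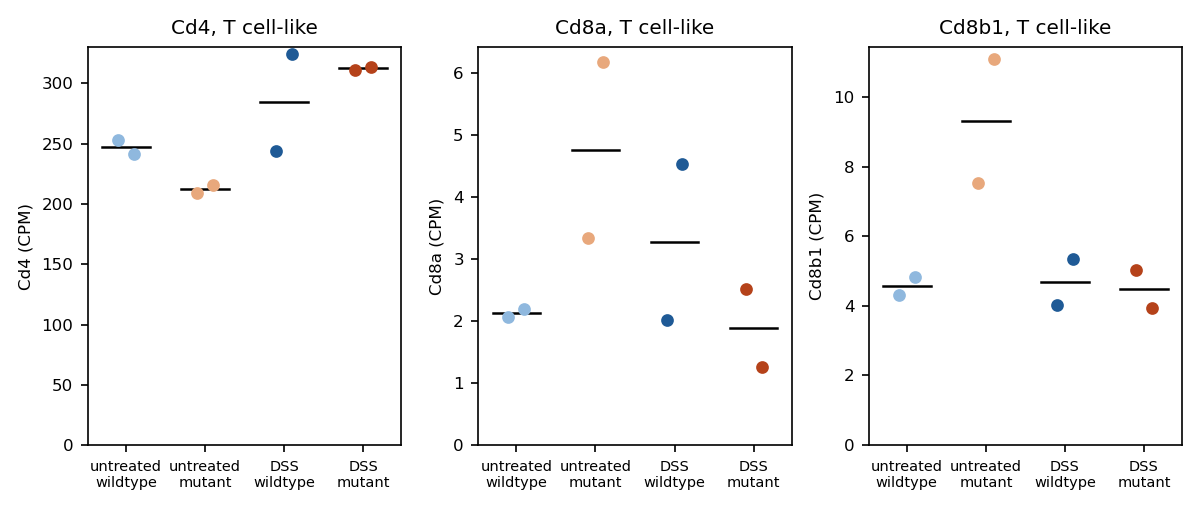
Cd4, Cd8a and Cd8b1 in T cell-like barcodes by group, in CPM on axes from 0, with 1 point per library and the mean of 2 libraries as a bar. Both untreated mutant libraries have the highest Cd8b1, and the untreated mutant has the lowest and the DSS mutant the highest mean of Cd4.

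In macrophage-like and innate lymphoid-like barcodes, Cd4 passed in no comparison of groups. Macrophage-like barcodes held 199 and 182.2 CPM in the untreated wildtype, 181.9 and 191 in the untreated mutant, 253 and 231 in the DSS wildtype and 237 and 224 in the DSS mutant. All 4 DSS libraries lay above all 4 untreated ones, yet the log2 differences were 0.20 ± 0.16 in the wildtype (edgeR adjusted p = 0.553, with 0.133% of 9763 genes called) and 0.12 ± 0.16 in the mutant (adjusted p = 0.667, with 10.5% called). The DSS libraries were also shallower in this class, with medians of 2730 to 3436 UMIs per barcode against 3535 to 5359 in the untreated ones, and over all libraries the macrophage-like Cd4 level went from 293 CPM in barcodes with 500 to 1000 UMIs to 177 CPM in those above 10000. CPM are scaled to total UMIs and the log2 differences to TMM-normalised totals, so their sizes are not directly comparable. With DSS in the mutant, 5 of 8 ligand genes were lower in this class (Il16, H2-Ab1, H2-Aa, H2-Eb1 and Cd74). Of 11 resident macrophage genes tested, C1qa, C1qb, Folr2 and Cx3cr1 were lower and Mertk was higher. In the wildtype no gene of these lists passed. The part of depth and of these changes in the order of the groups was not tested. The called shares of 0.133% and 10.5% are 13 and 1027 genes by edgeR, against 128 and 800 by DESeq2. Innate lymphoid-like barcodes, added later, held 286 and 233, 242 and 220, 309 and 469, and 339 and 368 CPM in the same order. In this mixed class every DSS library was above every untreated one, but in its subcluster of 503 barcodes DSS wildtype replicate 1, at 261 CPM, lay below 3 of the 4 untreated libraries (258 to 329 CPM). The class gave log2 differences of 0.52 ± 0.22 in the wildtype (adjusted p = 0.465, with 0.0798% of 6263 genes called by edgeR) and 0.49 ± 0.22 in the mutant (adjusted p = 0.353, with 0.415% called). Mutant against wildtype gave -0.02 ± 0.16 untreated and -0.10 ± 0.16 after DSS in macrophage-like barcodes, where edgeR called 0% of genes each time (527 and 204 at an unadjusted p under 0.05, 13 and 0 in DESeq2). In innate lymphoid-like barcodes it gave -0.13 ± 0.22 untreated and -0.16 ± 0.21 after DSS. There edgeR called 7 of 6263 genes (0.112%) untreated and 0 after DSS.

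The authors deposited a cell list, and every cell on it held a Cd4 UMI. All 27420 listed cells (27.2% of the barcodes) held at least 1 Cd4 UMI, at least 400 genes and under 20% mitochondrial UMIs. Another 5656 barcodes met these limits and were not listed. The 63645 barcodes that met the other limits without a Cd4 UMI, 34145 of them T cell-like, were all off the list. Of all T cell-like barcodes, 34.5% were listed. Since every listed cell held a Cd4 UMI, the share of T cell-like barcodes that could be listed depended on depth in the way given above.

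The list was not made of T cells alone. T cell-like barcodes were 75.3% of it, macrophage-like 9.17%, fibroblast-like 5.14%, innate lymphoid-like 1.73% and dendritic cell-like 1.56%. It also held 315 of the 1085 barcodes with Cd8a or Cd8b1. Among barcodes meeting the limits, the listed share was 83.0% of T cell-like, 84.9% of macrophage-like, 82.6% of fibroblast-like and 81.6% of innate lymphoid-like barcodes, and from 78.6 to 84.9% in every class with 77 or more such barcodes. It was lower in the small classes, at 62.3% of 53 squamous epithelium-like barcodes, and with 9 of 15 glia-like and 9 of 13 neutrophil-like barcodes listed. It did differ between libraries, at 75.9 and 83.9% in the untreated wildtype, 94.5 and 90.7% in the untreated mutant, 92.6 and 74.7% in the DSS wildtype and 65.0 and 96.4% in the DSS mutant. Multiplied by the number of barcodes in the library with at least 400 genes and under 20% mitochondrial UMIs, this share gave 9963 to 10066 in every library, with a median of 10003.5. How the listed cells were chosen is not given in the sources used here.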

How the data were processed

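For each library the authors deposited UMI counts for every gene and barcode, and for the series a table of gene symbols and a cell list. Per the submitters' processing notes, Cell Ranger 3.1.0, Seurat 4.0.1 and mm10 were used, with no role or setting given for each. The counts are raw and were read as deposited, without a further filter on barcodes. Gene coordinates and coding sequences come from the GENCODE annotation of GRCm38 and its transcripts, the same build as mm10.

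Barcodes were clustered with scanpy 1.11.5 and leidenalg 0.10.2 (1775 variable genes without the members, 30 principal components, 20 neighbours, resolution 1), giving 31 clusters. Clusters were named from marker lists, and 8 that did not meet the naming rule stayed unnamed. Doublets were scored with Scrublet and kept. Its own threshold called under 0.5% in 4 libraries, so the highest scores up to 0.8% per 1000 barcodes were taken as doublets in alternatives.

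Counts were summed per library and class and tested with edgeR 4.0.16 (quasi-likelihood, TMM, filterByExpr, Benjamini-Hochberg over all genes tested, threshold 0.05). Group tests used all 8 libraries and splits within a class used the library as a block. DESeq2 1.42.0 was an alternative. On simulated data, the T cell-like DSS comparison in the wildtype had 199 changed genes among 12546 tested. It recovered 97% of 4-fold and 63% of 2-fold changes and made 11 false calls. These values describe the simulated data only, and recovery in the deposited counts was not tested. Named genes were those of 8 lists with the largest differences, and the 10 highest and lowest called genes at 20 CPM or more with 1 sign in all 8 libraries. Members and lists were chosen with earlier results of these data known. Exact binomial intervals are at 95%, and a count of 0 allows up to 3 counts. The p-values of the group tests weigh a difference against the spread between libraries. Those of the splits within a class weigh it against how the difference within a library varies from library to library. Some items are not reported here.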

Additional observations from a re-analysis of the deposited data

How the results depend on the processing

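Libraries of different groups were not paired, because the labels give no shared replicate number. Each sample title has a numeric code of its own, and each wildtype library has a mutant library of the same treatment with a close code. What the codes stand for is not given in the sources used here, and a fit paired by them was not run. The comparisons within a class have the library as a block: without that replicate block the T cell-like count of 681 genes became 197, the macrophage-like count of 65 became 0 (117 at an unadjusted p under 0.05, edgeR), and the later Cd8a and Cd8b1 counts of 883 and 425 became 577 and 12. DESeq2 called 336 genes in the T cell-like comparison, and thinning to 1000 UMIs 451. Of the 681 genes, 265 were among the DESeq2 calls, 316 among those after thinning and 194 among those without the block, all with the same sign. The macrophage-like count became 190 without a filter on low counts and 491 without thinning. All 13 cytotoxic genes passed in DESeq2 and 11 after thinning. Without the filter, Cd4 (0.48) and Cd8a (-1.42) with DSS in the mutant and Cd8a (1.15) and Cd8b1 (1.02) in the untreated mutant against wildtype passed. DESeq2 passed Cd4 (0.45) and Cd8a (-1.45) with DSS in the mutant. The Cd8b1 call with DSS in the mutant was lost with only the 4 libraries compared (-1.15, edgeR adjusted p = 0.0654) and with only listed cells (-0.36, adjusted p = 0.466). All listed cells held a Cd4 UMI, so values from them cannot check Cd4 or the CD8 chains over all cells. Listed cells alone also turned the sign of values that had not passed. These were Cd8b1 with DSS in the wildtype (0.26), and Cd4 (-0.032) and Cd8b1 (0.16) in the mutant against wildtype after DSS. Without doublets, macrophage-like Cd4 in the untreated mutant against wildtype became 0.007531. Sign changes of single genes were H2-Aa at -0.083, Ptprc at -0.06045, Ikzf2 at -0.18 and Tyrobp at -0.65 after thinning, Adgre1 at -0.044 and Grn at -0.005741 without thinning, and Trdc, which ranged from -0.31 (without untreated mutant replicate 2) to 1.75 when single libraries were left out. Lck with DSS in the wildtype, which did not pass, became 0.002657 without the filter and ranged from -0.079 to 0.047 when single libraries were left out. The cause of these changes was not tested. Leaving out each library gave these ranges in T cell-like barcodes: with DSS in the wildtype, Cd4 -0.075 to 0.29, Cd8a -0.14 to 0.99 and Cd8b1 -0.24 to 0.13; with DSS in the mutant, Cd4 0.42 to 0.51, Cd8a -2.02 to -0.89 and Cd8b1 -1.42 to -0.82; mutant against wildtype untreated, Cd4 -0.27 to -0.18, Cd8a 0.62 to 1.55 and Cd8b1 0.69 to 1.29; and after DSS, Cd4 -0.058 to 0.31, Cd8a -1.38 to -0.14 and Cd8b1 -0.26 to 0.12. For macrophage-like Cd4 the ranges in the same order were 0.12 to 0.28, 0.04 to 0.20, -0.10 to 0.051 and -0.18 to -0.02. The numbers of called genes ranged from 481 to 718 (T cell-like), 20 to 75 (macrophage-like), 611 to 830 (Cd8a) and 267 (without DSS mutant replicate 1) to 454 (Cd8b1). The difference in the share of T cell-like barcodes with a CD8 chain ranged from -0.139 to -0.0226 percentage points for DSS and from -0.0282 to 0.119 for the genotype. With 2 libraries per group and 277 T cell-like barcodes with Cd8a, the values for the CD8 chains rest on few counts.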
